A study of Saccharomyces cerevisiae with 6 samples.

Results

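The mRNA levels of 7 budding yeast genes that govern the stress response and the entry into quiescence were examined: the transcription factor genes MSN2, MSN4, GIS1, HSF1, USV1 and XBP1, and the protein kinase gene RIM15. They were taken by symbol from the platform annotation, which gave each of them 1 probe set, and they are 7 of 5449 yeast genes tested. The strains of Saccharomyces cerevisiae were, by their labels, a wild type (WT) and a gpm1 mutant, which the series title describes as a knock-out of phosphoglycerate mutase, a glycolytic enzyme. Both were grown as batch cultures, with ethanol and glycerol as the carbon sources, and each strain has 3 one-colour arrays. The labels give neither the parent strain, the growth phase at harvest nor the number of clones, and they do not say whether the replicate arrays of a strain stand for separate cultures. The p-values thus rest on the spread among these arrays, and that spread may be technical.

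Yeast cells that run out of glucose or meet stress slow their growth and switch on a shared set of protective genes. The paralogous zinc finger activators Msn2 and Msn4 bind stress response elements (STREs) in the promoters of these genes, and protein kinase A keeps both proteins out of the nucleus in growing cells. Rim15 is a kinase needed for proper entry into stationary phase. It is held back by protein kinase A, by Sch9 downstream of TOR and by Pho80-Pho85, and it acts through Gis1, which binds post-diauxic shift elements, and through Msn2 and Msn4. Hsf1 is the essential heat shock factor that drives chaperone genes. Xbp1 is a repressor made under stress and starvation, and Usv1 is a zinc finger factor linked to growth on carbon sources that cannot be fermented. Much of this control acts on the location or phosphorylation of the proteins, which these arrays do not measure.

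The label check bears on every direction below. GPM1 (YKL152C), the gene the mutant should lack, read 5.16, 5.12 and 5.17 on the log2 scale on the arrays labelled WT and 12.5, 12.5 and 11.8 on those labelled gpm1. The arrays labelled WT lie under the level that 95% of probe sets not matched to yeast stayed below, 6.09, so this gene goes against the labels on all 6 arrays. Groups are therefore named only by their labels, and each difference is the array group labelled gpm1 minus the group labelled WT. The terms WT arrays, WT mean, fell and rose are used below in this sense only. If the labels were swapped, each direction would reverse. The arrays labelled gpm1 also spread more, with a median SD over genes of 0.248 against 0.0484. Poly-A control transcripts, added before labelling, averaged 7.14, 6.67 and 6.21 on labelled gpm1 replicates 1, 2 and 3, against 5.92 to 6.22 on the arrays labelled WT. Their part in the results below was not tested. Precision is limited by the 3 arrays per group.

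None of the 7 regulators passed the test between the labelled groups, and the nearest to it was the repressor gene XBP1. With limma, 0 of 7 members had an adjusted p under 0.05 over all 5449 genes, where 0.807% of all genes did (0.789% as lower and 0.0184% as higher), and at an unadjusted p under 0.05 there were 4 of 7, where 22.4% of all genes did. All 7 probe sets had means above the background level of 6.09. The members' differences ran from -0.64 for USV1 to 0.10 for MSN4, with a median of -0.28 where the median of all genes was 0.02. For 4 of them, XBP1, USV1, MSN2 and GIS1, every array labelled gpm1 lay under every array labelled WT, where 15.4% of all genes had groups apart in that direction and 34.6% in either. For the other 3, MSN4, RIM15 and HSF1, the groups overlapped. In bulk cultures, fewer cells in a given state and less RNA per cell cannot be told apart. No member was as much as 2-fold apart, while 2.66% of all genes were. Without labelled gpm1 replicate 3 the count of members past the threshold was 4, as given further on.

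**Figure D1:**
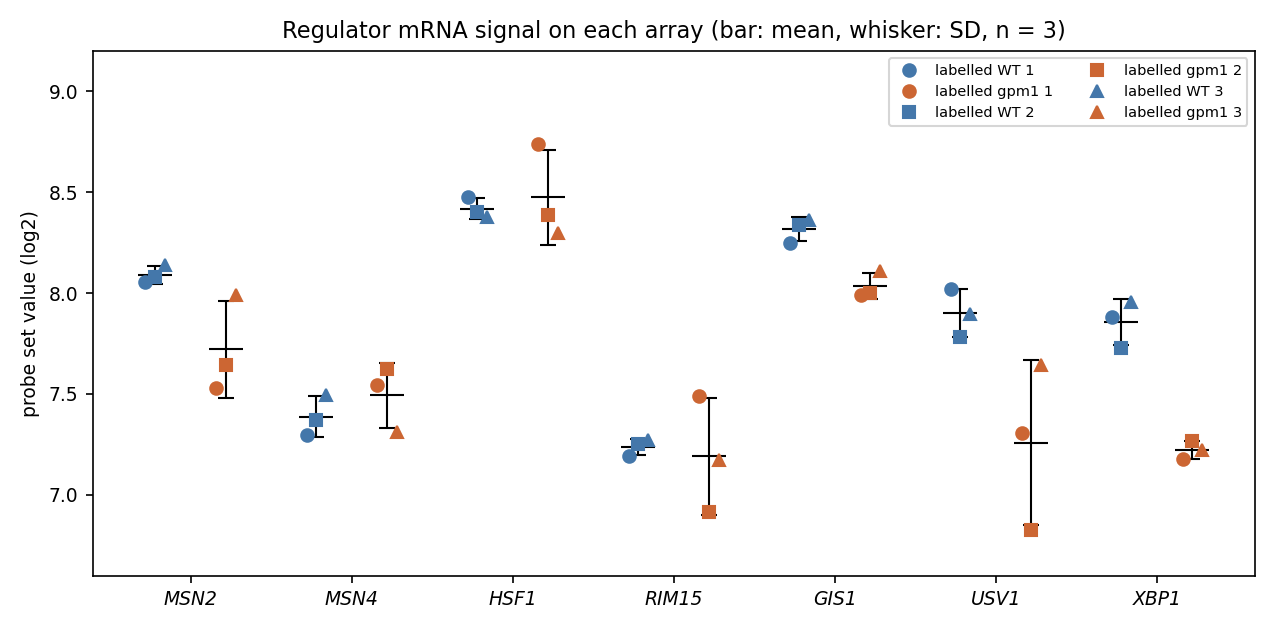
Probe set values on the log2 scale (vertical axis) for the 7 regulator genes (horizontal axis), with 1 point per array in blue for labelled WT and orange for labelled gpm1, marker shape for the replicate, a bar for the group mean and a whisker for the SD (n = 3). The 3 orange points of XBP1 sit close together between 7.18 and 7.27, under all its blue points, while those of USV1 spread from 6.83 to 7.64. Heights of different genes should not be compared, since each comes from its own probes.

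MSN2 and MSN4 encode paralogous activators, and their values did not run together. The MSN2 (YMR037C) probe set read 8.05, 8.08 and 8.14 on the arrays labelled WT and 7.53, 7.64 and 7.99 on those labelled gpm1. Labelled gpm1 replicates 1 and 2 were clearly low and replicate 3 lay just under the WT arrays, 0.06 below the lowest of them. The log2 difference was -0.37 (SE 0.14, limma adjusted p = 0.207), a level 1.29-fold lower that did not pass. For MSN4 (YKL062W) the values were 7.30, 7.37 and 7.50 on the arrays labelled WT, and 7.54, 7.62 and 7.31 on those labelled gpm1. Here replicates 1 and 2 were the higher arrays and replicate 3 fell inside the WT range. Its difference was 0.10 (SE 0.12, limma adjusted p = 0.578), with a 95% confidence interval from -0.18 to 0.39.

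Whether the paralogues responded unequally was examined within each array, a comparison chosen after their values were seen. MSN2 minus MSN4 was 0.76, 0.70 and 0.64 on the log2 scale on the arrays labelled WT, and -0.02, 0.02 and 0.68 on labelled gpm1 replicates 1, 2 and 3. The difference was near 0 on replicates 1 and 2 and within the WT range on replicate 3, so the groups overlapped. The change in this difference was -0.47 on average, and an exact two-sided permutation test gave p = 0.2, where 3 arrays against 3 cannot go below 0.1. This test could not have passed a threshold of 0.05 at this size, so whether the paralogues responded unequally is not settled by it.

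The heat shock factor gene HSF1 (YGL073W) read 8.48, 8.40 and 8.38 on the arrays labelled WT and 8.74, 8.39 and 8.30 on those labelled gpm1. Replicate 1 was high, replicate 2 was within the WT range and replicate 3 was under it. The difference was 0.06 (SE 0.13, limma adjusted p = 0.809), and its 95% confidence interval ran from -0.27 to 0.38. Its sign turned without labelled gpm1 replicate 1, to -0.08.

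RIM15 (YFL033C), the kinase gene, stood at 7.19, 7.25 and 7.27 on the arrays labelled WT and at 7.49, 6.91 and 7.17 on those labelled gpm1. Replicate 1 was above all the WT arrays and replicates 2 and 3 were below them. The labelled gpm1 arrays thus had an SD of 0.289 for this gene, against 0.0408 for the WT arrays. The difference of -0.05 (SE 0.15, limma adjusted p = 0.863) had a 95% confidence interval from -0.42 to 0.33, and it has no settled sign, since it was 0.01 after quantile normalization and 0.09 without labelled gpm1 replicate 2.

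GIS1, the factor gene that acts below Rim15, was more even. The GIS1 (YDR096W) values were 8.25, 8.34 and 8.36 on the arrays labelled WT and 7.99, 8.00 and 8.11 on those labelled gpm1. All 3 of the latter were lower, by 0.33, 0.31 and 0.21 against the WT mean, and the groups were 0.14 apart at their nearest. The difference was -0.28 (SE 0.09, limma adjusted p = 0.196), a level 1.22-fold lower that did not pass. RPH1 (YER169W), the GIS1 paralogue for a histone demethylase and repressor, stood at -0.38 (SE 0.10, limma adjusted p = 0.185), also with every array labelled gpm1 under the WT arrays.

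USV1 (YPL230W) had the widest spread of the members. It read 8.02, 7.78 and 7.90 on the arrays labelled WT and 7.31, 6.83 and 7.64 on those labelled gpm1. Replicate 2 was the lowest array by far, and replicate 3 was 0.14 under the lowest WT array. The mean difference was -0.64 (SE 0.21, limma adjusted p = 0.196), which is 1.56-fold lower and did not pass.

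XBP1 (YIL101C), for the repressor, had nearly the same mean difference as USV1 with far less spread. The XBP1 values were 7.88, 7.73 and 7.95 on the arrays labelled WT and 7.18, 7.27 and 7.22 on those labelled gpm1. All 3 arrays labelled gpm1 were low by similar amounts, 0.68, 0.59 and 0.63 under the WT mean, and 0.46 separated the groups at their nearest. The difference was -0.63 (SE 0.10, limma adjusted p = 0.054), a level 1.55-fold lower with a 95% confidence interval from -0.86 to -0.40. XBP1 was number 46 of 5449 genes in order of p, where 44 passed. It was the 1 member whose SD was smaller among the arrays labelled gpm1 (0.0445) than among those labelled WT (0.115), which held for 5.36% of all genes.

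**Figure D2:**
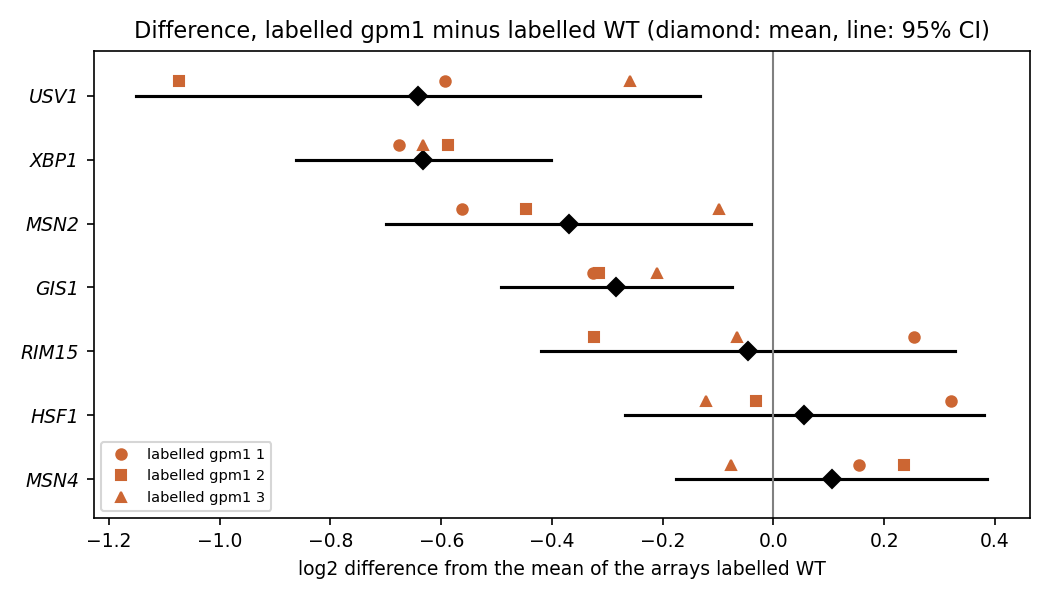
Log2 difference between the labelled groups (horizontal axis) for each regulator (vertical axis), with a diamond for the mean difference, a line for its unadjusted 95% confidence interval, and orange markers for each array labelled gpm1 against the WT mean. Intervals of XBP1, USV1, MSN2 and GIS1 lie below 0, that of XBP1 from -0.86 to -0.40, and those of RIM15, HSF1 and MSN4 span 0. None passed after adjustment over all genes.

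The arrays labelled gpm1 were not alike in these genes. Below the WT mean lay 4 of the 7 members on replicate 1, 6 on replicate 2 and 7 on replicate 3, where 45.5%, 50.6% and 45.8% of all genes did. The members' median was -0.33, -0.32 and -0.12 on the 3 arrays. For 5 members, all but HSF1 and XBP1, replicate 3 was the labelled gpm1 array nearest to the WT mean, as it was for 65.6% of all genes. Without labelled gpm1 replicate 3, 4 of 7 members passed, all lower, where 41.1% of all genes passed in either direction and 19.5% as lower. They were MSN2 at -0.50, GIS1 at -0.32, USV1 at -0.83 and XBP1 at -0.63, with limma adjusted p-values of 0.0057, 0.019, 0.013 and 0.0057. USV1 also passed with array weights (-0.81, limma adjusted p = 0.038), where 18.5% of all genes passed and the weight estimation did not converge. XBP1 passed with a trend and robust prior (limma adjusted p = 0.046), where 1.03% of all genes did. Each was the 1 member of 7 to pass in its setting. Over all alternatives the adjusted p of XBP1 ran from 0.0057 to 0.398, and its difference stayed between -0.70 and -0.58.

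Genes most like each member were sought among 5090 others above background, by the root mean square difference (RMS) of the 6 values after the WT mean was subtracted from each gene. XBP1 was nearest to FMP40 (RMS 0.0463), which stood at -0.78, -0.58 and -0.62 on labelled gpm1 replicates 1, 2 and 3, and then to YPL119C-A (RMS 0.0624). For USV1 the nearest were YJL132W (RMS 0.0604) and SYM1 (RMS 0.0806), for MSN2 they were IRC20 (RMS 0.0306) and JLP1 (RMS 0.0347), and for GIS1 they were ATG26 (RMS 0.0410) and GDE1 (RMS 0.0459). MSN4 was most like RTG2 (RMS 0.0166) and PIH1 (RMS 0.0438), and RIM15 most like DPB3 (RMS 0.0284) and FLO11 (RMS 0.0317). HSF1 was most like YNG1 (RMS 0.0225) and HDA3 (RMS 0.0328). From their own WT means, the values differed by an RMS of 0.133 for MSN4, 0.144 for HSF1 and 0.172 for RIM15. It was 0.207 for GIS1, 0.297 for MSN2, 0.453 for XBP1 and 0.516 for USV1. A member near its WT mean on every array is also near other genes of that kind. Among the members themselves the closest pair was MSN2 and GIS1 (RMS 0.121) and the farthest MSN4 and USV1 (RMS 0.629). All of these come from the same 6 arrays, so a departure of 1 array enters every such value.

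STRE genes, which Msn2 and Msn4 activate, were lower in part. Of 25 measured, 7 fell, 0 rose and 18 did not pass, where 0.789% of all genes passed as lower, and 19 had every array labelled gpm1 under the WT arrays, where 15.4% of all genes did. Their median difference was -0.84, against 0.02 for all genes, and it was -0.77, -0.88 and -0.70 on the 3 arrays. HSP26, a small heat shock protein gene, read 12.1, 11.9 and 12.3 on the arrays labelled WT and 9.22, 8.59 and 8.40 on those labelled gpm1, far apart on every array (limma adjusted p = 0.0029). SSE2, for a nucleotide exchange factor of Hsp70, stood at 9.63, 9.43 and 9.84 against 8.00, 7.77 and 7.67, a fall of 3.53-fold (SE 0.14 on the log2 scale, limma adjusted p = 0.0045). SSA4, for an inducible Hsp70, fell by 2.06 on the log2 scale (SE 0.25, limma adjusted p = 0.027). SOD2 and UBI4 were the list's members with a mean above the WT level, and neither passed. The values of HSP26 and some others here were known from earlier work on these arrays, so the list's direction is not independent evidence. The count of 7 changed with the arrays kept. Without labelled WT replicates 1, 2 and 3 it was 1, 2 and 2. Without labelled gpm1 replicates 1, 2 and 3 it was 7, 1 and 18. In the same settings the count of 44 over all genes went to 11, 19 and 13, and to 60, 12 and 2240. Of the 18 STRE genes, 17 were lower and 1 higher, in a setting where 41.1% of all genes passed, 19.5% as lower. With the replicate block the STRE count was 3, where 31 passed over all genes.

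The post-diauxic shift genes that depend on Rim15 and Gis1 were few and all lower. Of 4 measured, 4 fell, where 0.789% of all genes passed as lower, with a median difference of -2.87 against 0.02 for all genes. GRE1, a hydrophilin gene, read 10.9, 10.4 and 11.1 on the arrays labelled WT, and 7.05, 6.37 and 6.13 on those labelled gpm1 (limma adjusted p = 0.0029). SSA3, for another inducible Hsp70, read 10.1, 9.62 and 10.4 against 8.34, 7.35 and 7.32, a fall of 5.22-fold (SE 0.33 on the log2 scale, limma adjusted p = 0.045). HSP26 and HSP12 belong to this list and to the STRE list. This list too was chosen with earlier results of these data known. Its count and direction are therefore not independent evidence. The count of 4 was 2 without any 1 of the labelled WT arrays or without labelled gpm1 replicate 2. In this list replicate 3 was the labelled gpm1 array farthest from the WT mean for 3 of the 4 genes, which held for 9.19% of all genes. It also held for 8 of the 25 STRE genes and 10 of the 19 chaperone genes that Hsf1 drives. Of the regulators, 0 of 7 had replicate 3 farthest. The 2 genes that Gis1 is known to repress, PHR1 (on a probe set under the background level) and DPP1, stood at -0.29 and -0.41 with limma adjusted p-values of 0.229 and 0.280, 0 of 2 passing and 0 of 2 under an unadjusted p of 0.05. Without labelled gpm1 replicate 3, 1 of them passed as lower, where 19.5% of all genes did.

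Chaperone genes that Hsf1 drives were split by array. Of 19 measured, 3 fell, 0 rose and 16 did not pass, where 0.789% of all genes passed as lower and 0.0184% as higher. Their median was -0.08. The 3 that fell, SSA4, HSP104 (-1.03, SE 0.10, limma adjusted p = 0.015) and HSP78 (-0.84, SE 0.12, limma adjusted p = 0.049), are in the STRE list too. None of the 19 passed without any 1 of the labelled WT arrays, without labelled gpm1 replicate 2 or with the replicate block, and 9 did without labelled gpm1 replicate 3, of which 3 were higher and 6 lower, a share near the 41.1% of all genes that passed in that setting. HSP104 encodes a disaggregase of the cytosol and HSP78 its mitochondrial counterpart. Of the 15 Hsf1 targets that are not in the STRE list, 0 passed with limma, and 4 had an unadjusted p under 0.05 (26.7%, against 22.4% of all genes). On labelled gpm1 replicate 3 all 19 Hsf1 targets lay below the WT mean, with a median of -0.53. On replicates 1 and 2 there were 8 and 10 below it, with medians of 0.15 and -0.0002. Of the 15 not in the STRE list, 4, 6 and 15 lay below it on replicates 1, 2 and 3. Their medians were 0.25, 0.09 and -0.45. Of all genes, 45.5%, 50.6% and 45.8% lay below it on replicates 1, 2 and 3. On replicate 3 all 25 STRE genes, all 4 post-diauxic shift genes and all 7 members did too, and these lists share some genes. The other lists did not: 13 of 22 upstream signalling genes and 3 of 8 related factors lay below it. So did 1 of 5 genes that Xbp1 represses and 1 of 2 that Gis1 represses. HSF1 itself was high on replicate 1 and lowest on replicate 3, an order over the 3 arrays that no other member had. MSN2 and GIS1 ran the other way, lowest on replicate 1 and highest on replicate 3. The poly-A controls (7.14, 6.67 and 6.21) have the same order as HSF1 over these 3 arrays. Whether any of these orders are linked was not tested.

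Genes that Xbp1 represses did not pass. Of 5 measured, 0 passed with limma and 2 had an unadjusted p under 0.05, where 22.4% of all genes did, with a median of 0.18. CYS3, for a cysteine biosynthesis enzyme, stood at 0.54 (limma adjusted p = 0.220), and the cyclin genes CLB2, CLN3 and CLN1 at 0.23, 0.18 and -0.11. SMF2, for a manganese transporter, stood at -0.84 (limma adjusted p = 0.196), opposite to CYS3. CYS3 read 10.7, 10.8 and 10.7 on the arrays labelled WT and 11.6, 11.4 and 10.8 on those labelled gpm1, so replicate 3 was barely above the WT arrays. Without it 2 of the 5 passed, 1 higher and 1 lower, where 41.1% of all genes passed.

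Genes of the signalling that converges on Rim15, Msn2 and Msn4 did not pass either. Of 22 measured, among them subunits of protein kinase A, Ras and TOR genes and those for Pho80-Pho85, 0 passed with limma and 5 had an unadjusted p under 0.05 (22.7%, against 22.4% of all genes). The median was -0.12. TPK2, a catalytic subunit of protein kinase A, had the smallest p in that list at -0.35 (SE 0.10, limma adjusted p = 0.190). Every array labelled gpm1 lay under the WT arrays for 6 of the 22 and above them for 4, where 15.4% and 19.2% of all genes did. The next genes are named after their values were seen. Among the 4 above, RAS1, for a Ras GTPase, stood at 1.10 (limma adjusted p = 0.196). TPK3, another catalytic subunit of protein kinase A, stood at 0.55 (limma adjusted p = 0.199). On labelled gpm1 replicates 1, 2 and 3 RAS1 was 1.57, 1.51 and 0.21 above the WT mean, and TPK3 0.75, 0.78 and 0.13. Among the 6 below, CYR1 stood at -0.41 and BCY1 at -0.38 (limma adjusted p = 0.206 and 0.258). RAS2 stood at -0.24, with overlapping groups. Without labelled gpm1 replicate 3, 6 of these 22 genes passed as higher and 7 as lower, where 21.6% and 19.5% of all genes did.

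Among 8 DNA-binding factors related to the members, 0 passed with limma and 1, RPH1, had an unadjusted p under 0.05 (12.5%, against 22.4% of all genes). Without labelled gpm1 replicate 3, 1 passed as lower, where 19.5% of all genes did. The zinc finger genes COM2 and RGM1 stood at 0.09 and -0.18. SKN7, SFL1 and MGA1, whose products share the heat shock factor type of DNA-binding domain, stood at 0.13, -0.15 and 0.09, the last on a probe set under the background level. MBP1 and SWI4, whose DNA-binding domains are related to that of Xbp1, stood at 0.12 and 0.12, against -0.63 for XBP1.

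**Figure D3:**
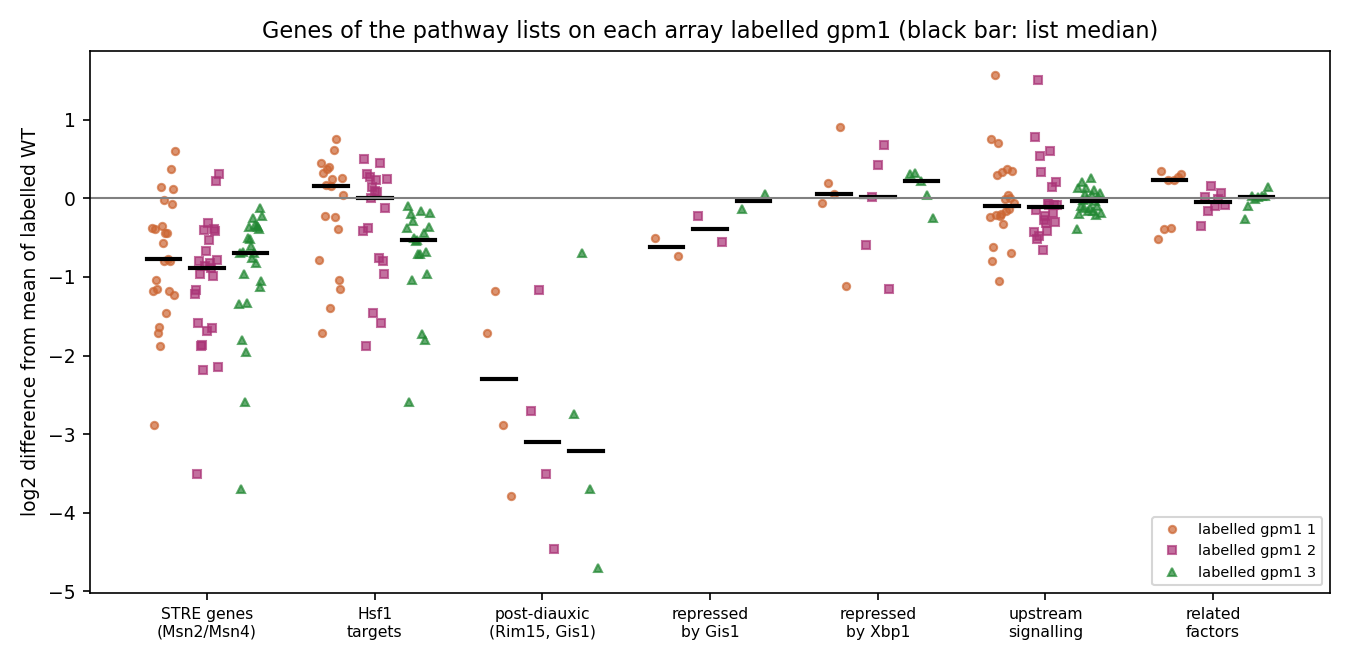
Log2 difference of each gene from its mean on the arrays labelled WT (vertical axis), by pathway list (horizontal axis) and labelled gpm1 replicate (colour and marker), with 1 point per gene and a black bar for the list median. The STRE and post-diauxic lists have negative medians on all 3 arrays, while the Hsf1 list has medians of 0.15, -0.0002 and -0.53.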

How the data were processed

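Per the submitters' processing notes, PLIER was used to make the probe set values. As deposited, they range from 4.88 to 13.1 and were read as log2. For the log base, any offset and the scaling between arrays, the setting is not given in the sources used here, and folds rest on base 2. Of 10928 probe sets, 5498 had a gene ID in the RefSeq table of S. cerevisiae assembly R64, used for names only. The brightest probe set per gene was kept, leaving 5449 genes. No genome build is named, so no coordinates are given.

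Labelled groups were compared with limma 3.58.1 in R 4.3.3 (lmFit, eBayes, two-sided), with Benjamini-Hochberg adjustment over all 5449 genes and a threshold of 0.05. For each gene, both groups share 1 estimate of spread. The fit was tested on simulated data with equal spread in both groups. That test does not cover the unequal spread of these arrays. Members, lists and tests were chosen with earlier results of these data known. Genes named were the members, the 2 most like each, GPM1, and per list the 3 largest differences past the threshold or the 1 smallest p. In the lists of repressed genes and relatives any gene could be named. Other genes (HSP12, SOD2, UBI4, RAS1, RAS2, TPK3, CYR1, BCY1) were named after their values were seen. Alternatives were quantile normalization, median centring, an offset of 16, leaving out the dimmest 20% of genes, averaged probe sets, another prior, array weights, a replicate block and leaving out each array. Figures used matplotlib 3.10.9.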

Additional observations from a re-analysis of the deposited data

How the results depend on the processing

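The differences of MSN2, MSN4, GIS1, USV1 and XBP1 kept their sign in every alternative run. RIM15 turned to 0.013 with quantile normalization, and ran from -0.20 to 0.094 with each array left out. HSF1 ran from -0.077 to 0.14, MSN4 from 0.039 to 0.20, MSN2 from -0.50 to -0.27, GIS1 from -0.32 to -0.26, USV1 from -0.83 to -0.43 and XBP1 from -0.70 to -0.58 with each array left out. RIM15 was not tested without the dimmest 20% of genes. The count of members past the threshold was 1 with a trend and robust prior (XBP1 at -0.63), 1 with array weights (USV1 at -0.81) and 0 to 4 with each array left out. Over all genes it was 44, 56 with a trend and robust prior and 1009 with array weights, whose estimation stopped before it converged. With each array left out it was 11 to 2240. The highest was without labelled gpm1 replicate 3, and the others below 44 were 11, 19 and 13 without labelled WT replicates 1, 2 and 3 and 12 without labelled gpm1 replicate 2. The causes were not tested.

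With each array left out the counts past the threshold ran from 1 to 18 for STRE genes, 0 to 9 for Hsf1 targets, 2 to 4 for post-diauxic shift genes, 0 to 1 for genes Gis1 represses, 0 to 2 for genes Xbp1 represses, 0 to 13 for upstream signalling and 0 to 1 for related factors. Each list had its highest count without labelled gpm1 replicate 3, where 41.1% of all genes passed. With array weights the counts were 17, 6, 2 and 4 for the STRE, Hsf1, Xbp1-repressed and upstream lists, where 18.5% of all genes passed. Whether replicate numbers pair the arrays is not settled. The deviations of same-numbered arrays correlated at 0.05, 0.02 and -0.13 over genes, and those of differently numbered arrays from -0.24 to 0.18. With 3 arrays per group, such values cannot exclude a pairing. With the replicate block, 31 genes, 0 members, 3 STRE genes and 0 Hsf1 targets passed, and XBP1 stood at -0.63 (limma adjusted p = 0.195).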
